A study of Mus musculus with 20 samples.

Results

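The transcripts of 9 genes of histone H3 lysine 9 (H3K9) methylation and heterochromatin were measured by RNA-seq in mouse germ cells. The genes were chosen by symbol, as the H3K9 methyltransferase genes Setdb1, Suv39h1, Suv39h2, Ehmt1 and Ehmt2, the corepressor gene Trim28, and the heterochromatin protein 1 (HP1) genes Cbx1, Cbx3 and Cbx5. All 9 were found among the 53722 genes listed for oocytes and among the 55291 listed for spermatogonia, and all 9 passed the filter on low values in both. The 20 libraries form 10 groups of 2, each a conditional knockout of Chd4, which encodes the ATPase of the NuRD chromatin remodelling complex, or its control. DcKO germ cells were Chd4 f/- with Ddx4-Cre Tg/+, and their Dctrl controls were Chd4 f/+ with the same Cre transgene, so that these controls were heterozygous for the floxed allele and carried Cre. GcKO oocytes were Chd4 f/f with Gdf9-iCre Tg/+, and their Gctrl controls were Chd4 f/f without Cre. DcKO and Dctrl cells were non-growing oocytes (NGO) at postnatal days 1 and 5 (P1, P5) and undifferentiated spermatogonia at P3, and GcKO and Gctrl cells were NGO and growing oocytes (GO) at P10. Ddx4 is a germ cell gene and Gdf9 an oocyte gene, and their promoters drive the Cre in those cells. All animals were of a mixed C57BL/6, 129S1/Sv and FVB/NJ background.

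Methylation of H3K9 marks silent chromatin. SETDB1 is brought to DNA by TRIM28 and KRAB zinc finger proteins and represses transposable elements, SUV39H1 and SUV39H2 trimethylate H3K9 at pericentromeric repeats, and the EHMT1 (GLP) and EHMT2 (G9a) pair dimethylates it in gene-rich chromatin. The HP1 proteins CBX1 (HP1 beta), CBX3 (HP1 gamma) and CBX5 (HP1 alpha) bind the methylated lysine. In mouse oocytes SETDB1 is known to be needed for meiosis and for repression of transposable elements.

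The promoters of the paralogs whose transcripts moved in opposite directions between the P10 and P5 control NGO, described later, are shown first. They are the 250 bases before the RefSeq start (GRCm38.p6, sequences from RefSeq), with the GC box (GGGCGG, or CCGCCC where the box lies on the other strand) in capitals. The Suv39h1 window lies at chrX:8074761-8075010 and that of Suv39h2 at chr2:3474987-3475236, both on the minus strand. The Cbx1 window lies at chr11:96788885-96789134 and that of Cbx3 at chr6:51470366-51470615, both on the plus strand.
Suv39h1: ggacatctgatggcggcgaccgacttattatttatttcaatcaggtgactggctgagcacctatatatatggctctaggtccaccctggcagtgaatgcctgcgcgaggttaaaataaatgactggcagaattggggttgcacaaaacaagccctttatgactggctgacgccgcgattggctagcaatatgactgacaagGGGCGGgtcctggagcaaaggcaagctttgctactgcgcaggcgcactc
Suv39h2: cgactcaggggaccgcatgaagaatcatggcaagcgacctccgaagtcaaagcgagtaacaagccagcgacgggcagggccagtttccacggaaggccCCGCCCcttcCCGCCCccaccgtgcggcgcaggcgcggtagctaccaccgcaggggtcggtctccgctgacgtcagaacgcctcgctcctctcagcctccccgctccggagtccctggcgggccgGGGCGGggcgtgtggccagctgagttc
Cbx1: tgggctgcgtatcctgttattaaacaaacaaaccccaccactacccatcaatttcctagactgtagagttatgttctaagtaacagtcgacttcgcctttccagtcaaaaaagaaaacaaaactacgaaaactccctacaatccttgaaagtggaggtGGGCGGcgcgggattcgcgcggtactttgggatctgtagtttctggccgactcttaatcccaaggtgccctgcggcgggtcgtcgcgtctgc
Cbx3: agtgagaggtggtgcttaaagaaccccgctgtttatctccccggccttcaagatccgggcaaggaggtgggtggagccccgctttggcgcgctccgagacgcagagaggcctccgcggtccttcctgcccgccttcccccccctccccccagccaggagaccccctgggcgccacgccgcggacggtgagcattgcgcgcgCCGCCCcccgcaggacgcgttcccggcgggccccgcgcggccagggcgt
The window of Suv39h2 was 69.6% GC with 27 CpG dinucleotides and 3 GC boxes, against 51.6% GC, 11 CpG and 1 GC box for Suv39h1. The window of Cbx3 was 73.2% GC with 29 CpG, against 49.6% GC and 16 CpG for Cbx1, and each had 1 GC box. The pairs are shown for how their transcripts moved, and the contrast between their windows is a description only. The RefSeq and GENCODE M21 starts differ for some genes, so that the Cbx3 window lies wholly inside the M21 gene, whereas that of Cbx1 lies before its M21 start but for 8 bases. The window of Suv39h1 lies wholly before the M21 start, that of Suv39h2 but for 45 bases, and the RefSeq start of Trim28 lies 25038 bases inside the M21 gene. All 9 promoters held a GC box, which 32.7% of the 32851 promoters listed for mouse genes hold. None of the 9 held TATAAA or its complement TTTATA, found in 12.4% of all promoters. The CCAAT box (CCAAT, or ATTGG on the other strand) was found 2 times in Suv39h1 and 1 time each in Setdb1 and Cbx5. The other promoters of the 9 did not hold it, while 33.8% of all promoters do. Over all promoters the median GC content was 52.4% and the median number of CpG was 6. A match of letters is a description of the window and shows no binding.

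The authors deposited TPM, a transcript level scaled by gene length and by the total of a library. Whole reads could be recovered from them, at 15333044 to 27011286 reads per oocyte library and 18911934 to 30065380 per spermatogonia library. The numbers of genes at 1 TPM or more were 10003 to 16264 in oocytes and 17259 to 18657 in spermatogonia. The oocyte markers were all detected, with 6 or 7 of 7 at 1 TPM or more and a summed level of 2063 to 8457 TPM in the oocyte libraries, and 8 or 9 of 9 spermatogonia markers were at 1 TPM or more in spermatogonia. Both lists hold Ddx4 and Dazl. In spermatogonia 5 or 6 of the 7 oocyte markers reached 1 TPM and the list summed to 2586 to 2737 TPM, so its sum does not tell the cell types apart. In oocytes 2 to 7 of the 9 spermatogonia markers reached 1 TPM, with a sum of 443 to 1820 TPM. The targeted gene Chd4 had 4.32 and 1.9 TPM in P1 DcKO NGO, against 24.7 and 31.2 TPM in P1 Dctrl NGO, and this fall passed the test (log2 fold change -2.87, SE 0.499, limma adjusted p = 0.0136). It had 8.28 and 4.94 TPM in P5 DcKO NGO against 14.5 and 17.9 TPM in Dctrl, and 40.2 and 51.7 TPM in DcKO spermatogonia against 249 and 286 TPM in Dctrl; neither passed (limma adjusted p = 0.351 and 0.0671). At P10 it was low in all libraries, at 1.34 and 0.247 TPM in GcKO NGO against 1.63 and 1.85 TPM in Gctrl NGO, and at 0.631 and 1.54 TPM in GcKO GO against 1.56 and 2.96 TPM in Gctrl GO. These values cover the whole gene, not the deleted exons alone, and the P10 libraries therefore do not check the genotype.

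Levels of the 9 genes differed by gene and by cell. In oocytes Cbx1 was the most abundant of the 9, at 102 to 421 TPM over the 16 libraries, and Ehmt2 the least, at 0 to 5.96 TPM. The ranges of the others over the oocyte libraries were 9.07 to 116 TPM for Suv39h2, 0.0762 to 20.8 TPM for Suv39h1, 0.516 to 40.7 TPM for Trim28, and 3.22 to 20.5 TPM for Setdb1. Ehmt1 ranged over 2.53 to 20.5 TPM, Cbx3 over 6.18 to 47.8 TPM and Cbx5 over 1.36 to 18.7 TPM. In spermatogonia Trim28 was highest, at 121 to 172 TPM, and Suv39h2 lowest, at 23.5 to 41.1 TPM, with the other 7 between 27.2 and 93.2 TPM. The 2 cell types were deposited in tables that were normalized separately, so levels across them are set side by side with no test. Knockout and control libraries often did not overlap, as 17% to 30.3% of all genes lay wholly higher or wholly lower, by comparison and direction.

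**Figure D1:**
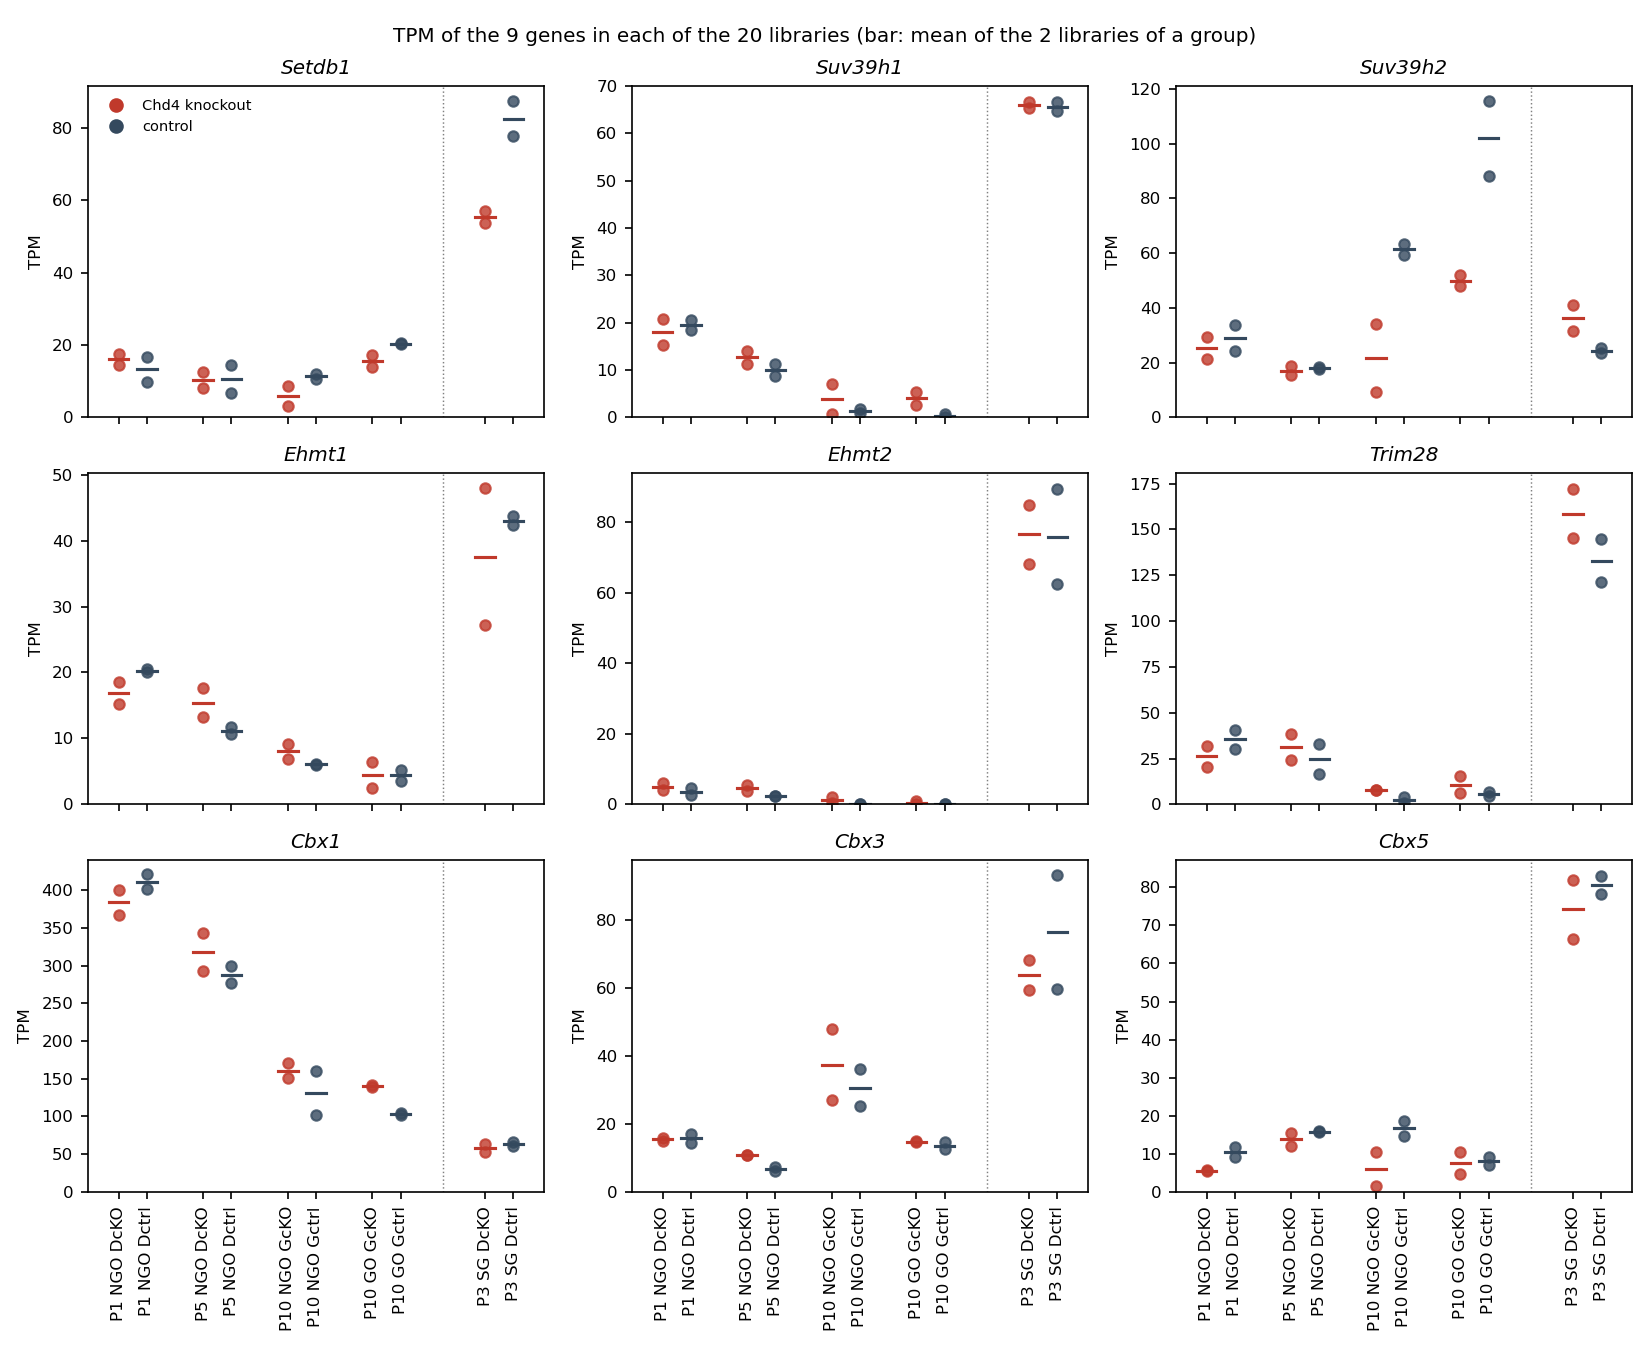
Level (TPM, linear axes with a scale of their own for each gene) of the 9 genes in the 20 libraries, with each knockout group in red left of its control in dark blue; points are libraries and bars are means of 2. Cbx1 lies at 102 to 421 TPM in oocytes, and Ehmt2 lies at 62.3 to 89.4 TPM in spermatogonia but at 0 to 2.11 TPM in P10 oocytes.

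Among the methyltransferase genes, Suv39h2 had the highest level in the oocyte libraries of P10 controls. It had 88.3 and 116 TPM in Gctrl GO, 59.4 and 63.4 TPM in Gctrl NGO, and 52.0 and 47.9 TPM in GcKO GO. These 3 groups led the order of its levels and did not overlap each other or any other group. Below them came DcKO and Dctrl P1 NGO, at 21.2 and 29.3 TPM and at 33.8 and 24.2 TPM, then GcKO P10 NGO at 34.2 and 9.07 TPM, and DcKO and Dctrl P5 NGO at 15.3 and 18.8 TPM and at 18.2 and 17.5 TPM. In this lower part of the order each group of oocytes overlapped at least 1 neighbour, and the 2 GcKO P10 NGO libraries stood on either side of most of the others. DcKO and Dctrl spermatogonia had 41.1 and 31.7 TPM and 23.5 and 25.2 TPM.

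Among the oocytes Suv39h1 was highest at P1 and lowest at P10, where Cre and the Chd4 alleles also differ. It had 20.8 and 15.3 TPM in P1 DcKO NGO against 18.5 and 20.6 TPM in P1 Dctrl NGO, and 11.3 and 14.1 TPM in P5 DcKO NGO against 11.2 and 8.78 TPM in P5 Dctrl NGO. At P10 it had 6.98 and 0.728 TPM in GcKO NGO against 0.934 and 1.68 TPM in Gctrl NGO, and 5.36 and 2.63 TPM in GcKO GO against 0.599 and 0.0762 TPM in Gctrl GO. In spermatogonia it had 65.4 and 66.7 TPM in DcKO and 64.7 and 66.7 TPM in Dctrl. The P1 and P5 groups thus lay above every P10 library, and the GcKO and Gctrl libraries overlapped in NGO but not in GO. The level in Gctrl GO rests on 24 and 3 reads, against 212 and 90 reads in GcKO GO. Suv39h1 shares 767 exon bases, 14.6% of its exon length, with the antisense gene Gm14820, and the strand setting of the counting was not given, so reads of the pair cannot be told apart there. Gm14820 stood at 184 to 242 TPM in GcKO GO and 84.0 to 141 TPM in Gctrl GO, and its part in the Suv39h1 values was not tested. Suv39h2 likewise shares 357 exon bases, 8.10% of its exon length, with Dclre1c on the other strand, which had 0.292 to 1.49 TPM in Gctrl P10 NGO and 4.26 to 6.93 TPM in Dctrl P5 NGO.

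The Suv39h2 share of the SUV39 pair was therefore higher in P10 than in younger oocytes, which also differ in Cre and Chd4 alleles. It was 50.4% and 65.6% in P1 DcKO NGO and 64.6% and 54.0% in P1 Dctrl NGO, and 57.6% and 57.2% in P5 DcKO NGO and 61.9% and 66.5% in P5 Dctrl NGO. At P10 it was 83.1% and 92.6% in GcKO NGO against 98.5% and 97.4% in Gctrl NGO, and 90.7% and 94.8% in GcKO GO against 99.3% and 99.9% in Gctrl GO. Every GcKO library lay below every Gctrl library of its cell type, in NGO and in GO. In spermatogonia it was 38.6% and 32.2% in DcKO and 26.6% and 27.4% in Dctrl. Of the summed TPM of the 5 methyltransferase genes, Suv39h2 made up 58.2% and 40.2% in GcKO P10 NGO, against 75.7% and 77.5% in Gctrl P10 NGO.

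**Figure D2:**
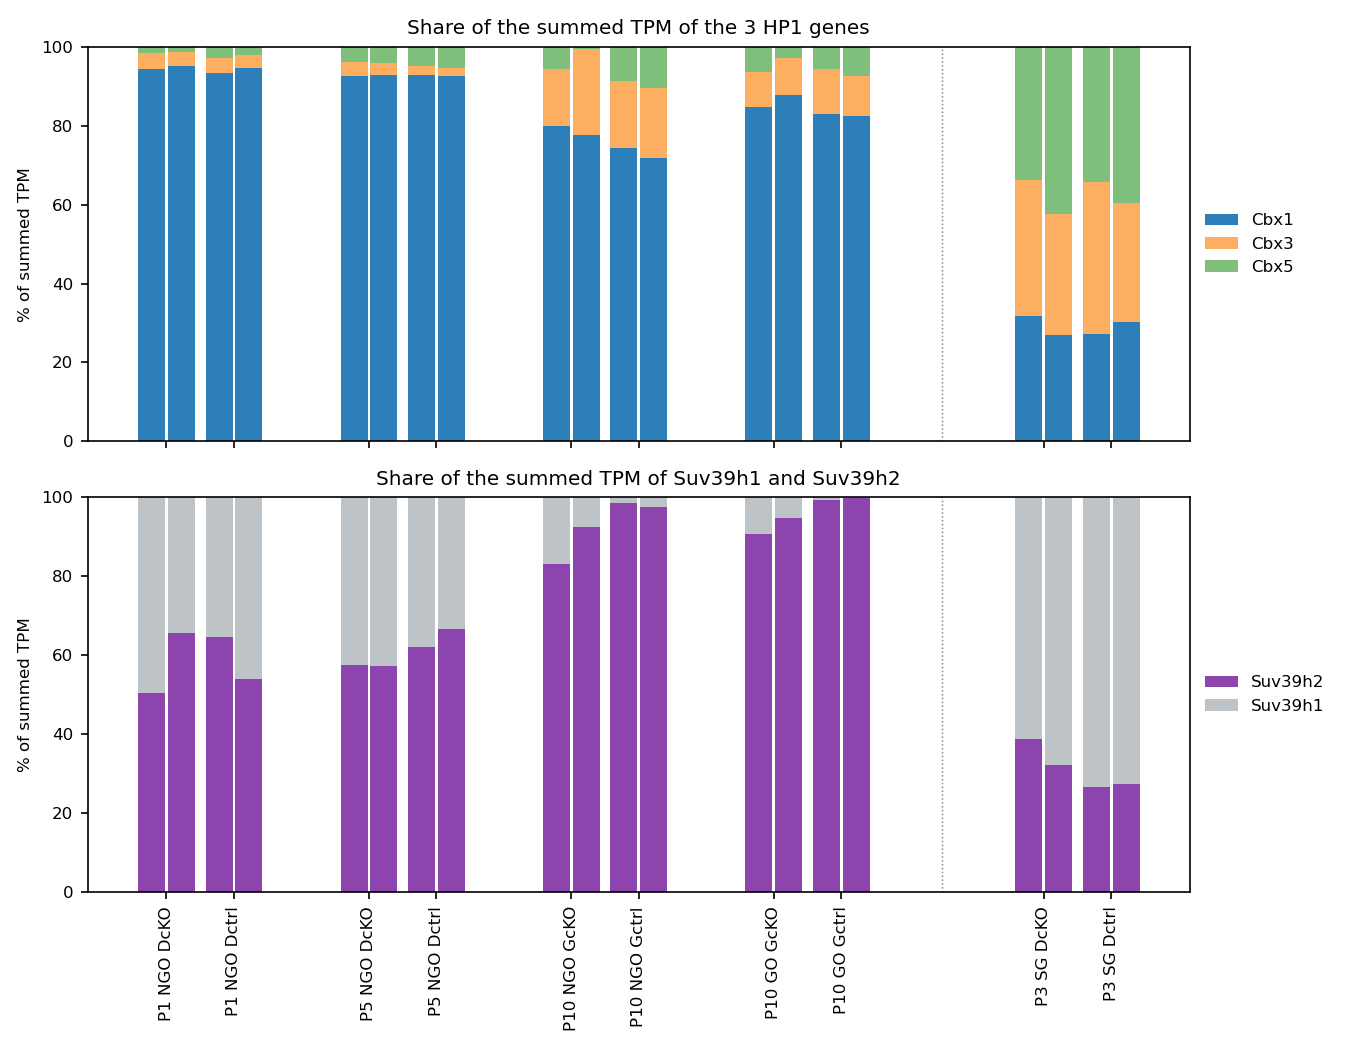
Stacked bars of the share (%) of each gene in the summed TPM of the 3 HP1 genes and in that of Suv39h1 and Suv39h2; each bar is 1 library of the 10 groups, with knockout groups left of their controls. The Suv39h2 share is 97.4% or more in the P10 control oocytes, and the Cbx1 share is 92.6% or more in every P1 and P5 library but 31.8% or less in spermatogonia.

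Setdb1, the methyltransferase gene of the TRIM28 pathway, showed no steady order by age in oocytes. It had 14.4 and 17.6 TPM in P1 DcKO NGO against 9.85 and 16.6 TPM in Dctrl, 7.95 and 12.4 TPM in P5 DcKO NGO against 14.4 and 6.70 TPM in Dctrl, and 8.59 and 3.22 TPM in P10 GcKO NGO against 11.9 and 10.7 TPM in Gctrl. In GO it had 17.3 and 13.995 TPM in GcKO and 20.2 and 20.5 TPM in Gctrl. Both P10 knockout groups lay below their controls without overlap, as did 17% of all genes in NGO and 18% in GO. At P1 and P5 knockout and control libraries overlapped. In spermatogonia it had 53.7 and 57.0 TPM in DcKO, against 77.8 and 87.5 TPM in Dctrl, also without overlap, as were 18% of all genes there.

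Ehmt1 and Ehmt2 had different levels in oocytes. Ehmt1 had 15.2 and 18.5 TPM in P1 DcKO NGO against 19.997 and 20.5 TPM in Dctrl, 17.7 and 13.2 TPM in P5 DcKO NGO against 10.6 and 11.7 TPM in Dctrl, and 6.90 and 9.23 TPM in P10 GcKO NGO against 6.07 and 6.04 TPM in Gctrl. Ehmt2 had 4.07 and 5.96 TPM in P1 DcKO NGO against 2.63 and 4.68 TPM in Dctrl, and 3.67 and 5.64 TPM in P5 DcKO NGO against 2.34 and 2.32 TPM in Dctrl. The Ehmt1 libraries did not overlap in any of these 3 comparisons and lay lower in DcKO at P1 and higher in the knockouts at P5 and P10, and the Ehmt2 libraries overlapped at P1 but not at P5. At P10 Ehmt2 had few reads, at 2.11 and 0.293 TPM (109 and 13 reads) in GcKO NGO, against 0.165 and 0.0260 TPM (7 reads and 1 read) in Gctrl NGO. In GO it was at 0.849 TPM (35 reads) and listed at 0 in GcKO, and listed at 0 in both Gctrl libraries, where Ehmt1 had 6.35 and 2.53 TPM in GcKO and 3.62 and 5.20 TPM in Gctrl. In spermatogonia Ehmt2 was higher than Ehmt1 in every library, at 68.1 and 84.9 TPM in DcKO and 62.3 and 89.4 TPM in Dctrl, with Ehmt1 at 27.2 and 47.9 TPM in DcKO and 43.7 and 42.3 TPM in Dctrl.

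Trim28, which encodes the corepressor that links KRAB zinc finger proteins to SETDB1, was also low in P10 oocytes. It had 32.1 and 20.5 TPM in P1 DcKO NGO against 30.3 and 40.7 TPM in Dctrl, and 24.5 and 38.5 TPM in P5 DcKO NGO against 33.1 and 16.8 TPM in Dctrl, with overlap at both ages. At P10 it had 7.88 and 7.98 TPM in GcKO NGO against 4.30 and 0.516 TPM in Gctrl NGO, and 15.3 and 6.38 TPM in GcKO GO against 6.65 and 4.70 TPM in Gctrl GO. The NGO libraries did not overlap at P10, although the lower Gctrl value rests on 15 reads, and the GO libraries did. In spermatogonia it had 145 and 172 TPM in DcKO and 121 and 145 TPM in Dctrl.

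Of the HP1 genes, Cbx1 lay lower at later ages in knockouts and in controls, and Cbx3 was lowest at P5. Age, Cre and the Chd4 alleles differ together between P5 and P10 and cannot be told apart. Cbx1 had 368 and 400 TPM in P1 DcKO NGO and 402 and 421 TPM in P1 Dctrl NGO, then 293 and 343 TPM in P5 DcKO NGO and 299 and 277 TPM in P5 Dctrl NGO. At P10 it had 150 and 171 TPM in GcKO NGO and 160 and 102 TPM in Gctrl NGO, and 142 and 139 TPM in GcKO GO against 104 and 102 TPM in Gctrl GO. Every P1 and P5 library lay above every P10 library, and knockout and control overlapped in P5 and P10 NGO but not in P1 NGO or GO. Cbx3 had 15.9 and 14.998 TPM in P1 DcKO NGO and 16.9 and 14.4 TPM in P1 Dctrl NGO, 10.8 in both P5 DcKO NGO libraries and 7.31 and 6.18 TPM in P5 Dctrl NGO. At P10 it had 27.0 and 47.8 TPM in GcKO NGO and 36.1 and 25.1 TPM in Gctrl NGO, and 14.8 and 14.7 TPM in GcKO GO and 14.6 and 12.5 TPM in Gctrl GO. The P10 NGO libraries were the highest for Cbx3 among the oocytes, in knockouts and in controls. The 8 rows of Cbx3 pseudogenes could hold reads of Cbx3; they were listed at 0 in all 4 P10 NGO libraries and summed to 0.402 to 2.23 TPM in P5 Dctrl NGO.

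Cbx5 had no such order with age. It had 5.61 and 5.33 TPM in P1 DcKO NGO against 11.7 and 9.06 TPM in Dctrl, 12.0 and 15.5 TPM in P5 DcKO NGO against 15.6 and 15.9 TPM in Dctrl, and 10.5 and 1.36 TPM in P10 GcKO NGO against 18.7 and 14.6 TPM in Gctrl. All 3 knockout NGO groups lay below their controls without overlap, and the 2 GcKO NGO libraries differed from each other by more than those of any other oocyte group did. In GO it had 10.4 and 4.52 TPM in GcKO, on either side of 6.96 and 9.18 TPM in Gctrl. In spermatogonia the 3 HP1 genes were at like levels, with Cbx1 at 62.7 and 52.1 TPM in DcKO and 65.5 and 60.1 TPM in Dctrl, Cbx3 at 68.3 and 59.3 TPM in DcKO and 93.2 and 59.7 TPM in Dctrl, and Cbx5 at 66.5 and 82.0 TPM in DcKO and 83.0 and 78.3 TPM in Dctrl. Cbx1 accordingly made up 31.8% and 26.9% of the summed HP1 TPM in DcKO spermatogonia and 27.1% and 30.3% in Dctrl. In oocytes it made up 92.6% to 95.2% at P1 and P5, and at P10 it was 80.0% and 77.7% in GcKO NGO against 74.5% and 71.9% in Gctrl NGO, and 84.9% and 87.8% in GcKO GO against 82.9% and 82.4% in Gctrl GO.

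The knockout comparisons ask how loss of Chd4 changes these transcripts. A bulk sample cannot tell fewer cells of a type from less RNA per cell. Differences were tested with limma on log2(TPM + 1), with p-values adjusted by the Benjamini-Hochberg method over all genes tested and a threshold of 0.05. None of the 9 passed in any of the 5 comparisons. In P1 NGO 0 of 9 passed, where 1.7% of all 20470 genes tested did, and 0 of 9 had an unadjusted p under 0.05, as 10.2% of all genes did. Cbx5 had the smallest p there, with a log2 fold change of -0.80 (95% interval -2.15 to 0.54, limma adjusted p = 0.826). In P5 NGO 0 of 9 passed, where 1.36% of all genes did, and 0 of 9 had an unadjusted p under 0.05, as 11.8% of all genes did. Cbx3 had the smallest p, with a log2 fold change of 0.61 (95% interval -0.14 to 1.37, limma adjusted p = 0.558). These intervals allow changes of more than 2-fold for several genes. That of Cbx1 is narrower, at -0.54 to 0.34 around -0.10 in P1 NGO and at -0.30 to 0.58 around 0.14 in P5 NGO. Every member at P1 and P5 had an interval that included 0. At P1 the granulosa cell markers summed to 6.36 and 67.9 TPM in DcKO NGO and 70.5 and 123.7 TPM in Dctrl NGO. Of these sums Krt18 alone had 0.700 to 52.2 TPM in DcKO and 57.9 to 107.6 TPM in Dctrl. The defining gene Foxl2 had 0 to 0.360 TPM in DcKO and 0.0407 to 0.269 TPM in Dctrl. Amh was listed at 0 in every library of both groups. The endothelial markers summed to 24.2 and 15.7 TPM in DcKO and 8.21 and 9.43 TPM in Dctrl. The 7 oocyte markers summed to 6711 and 6987 TPM in DcKO and 7189 and 7636 TPM in Dctrl. At P5 the granulosa cell markers summed to 36.4 and 56.8 TPM in DcKO NGO and 8.55 and 8.44 TPM in Dctrl NGO, with 2 to 4 of 7 at 1 TPM or more in the 4 libraries. The 6 Sertoli cell markers, of which Amh, Inha and Wt1 are also on the granulosa list, summed to 14.9 and 46.2 TPM in P5 DcKO NGO and 1.47 and 3.45 TPM in P5 Dctrl NGO. The endothelial markers summed to 10.3 and 8.79 TPM in P5 DcKO and 8.32 and 4.55 TPM in P5 Dctrl, and the oocyte markers to 7084 and 6213 TPM in P5 DcKO and 8457 and 8328 TPM in P5 Dctrl. These sums did not overlap between knockout and control at either age, and their part in the values of the 9 genes was not tested.

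**Figure D3:**
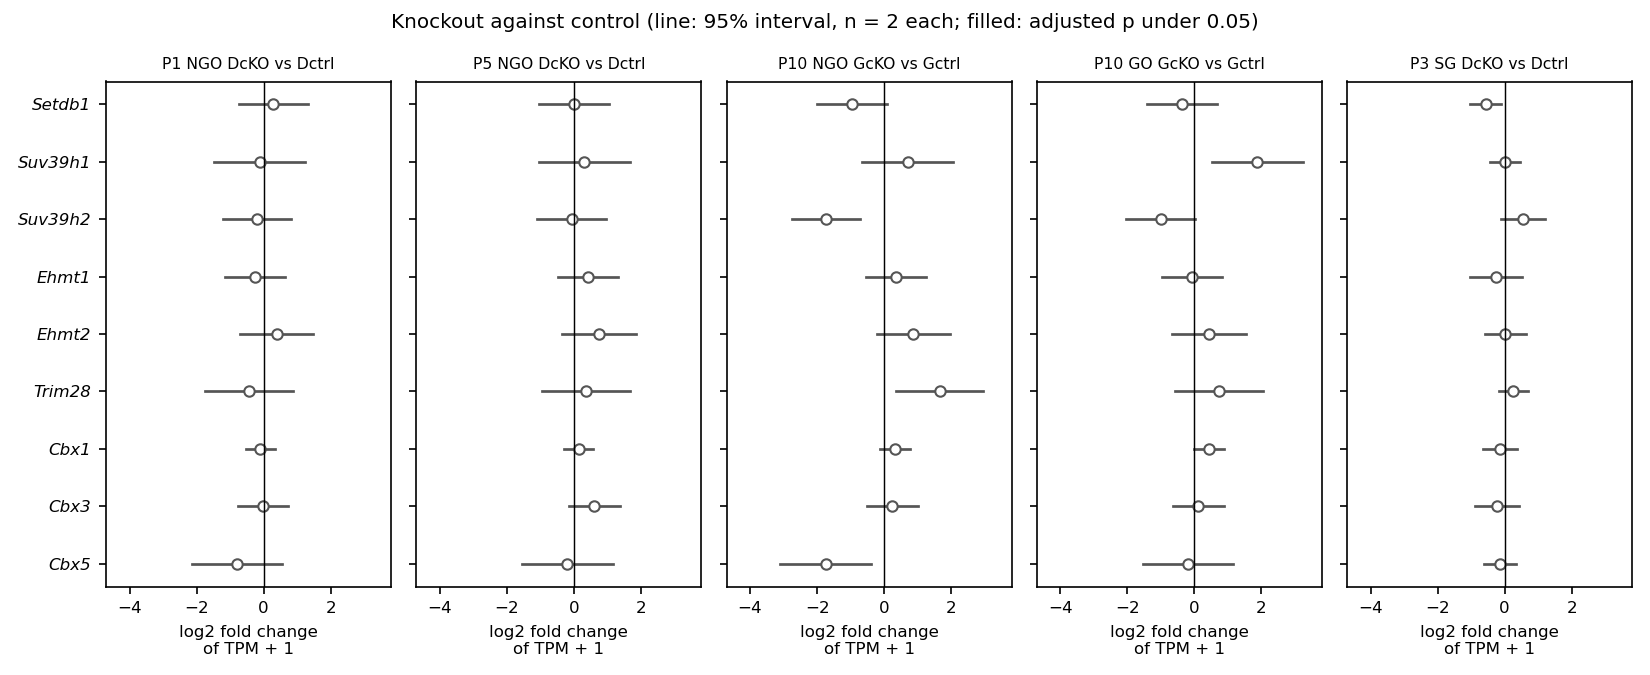
Log2 fold change of TPM + 1 in knockout against control, for each of the 9 genes in the 5 comparisons, with the 95% interval from limma (n = 2 libraries in each group); a filled point would mark an adjusted p under 0.05. No point is filled, and the intervals that lie off 0 are those of Suv39h2, Trim28 and Cbx5 in P10 NGO, of Suv39h1 and Cbx1 in P10 GO and of Setdb1 in spermatogonia.

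In P10 NGO 0 of 9 passed, where 1.92% of all genes did, and 3 of 9 had an unadjusted p under 0.05, as 15.6% of all genes did. Suv39h2 averaged 21.7 ± 17.8 TPM in GcKO NGO and 61.4 ± 2.85 TPM in Gctrl NGO (SD, n = 2 each), a log2 fold change of -1.73 (SE 0.468, 95% interval -2.75 to -0.70, limma adjusted p = 0.0921). The call depended on 1 library. Without replicate 1 of GcKO NGO, the library with the higher Suv39h2 level, the log2 fold change was -2.63 and the limma adjusted p 0.00225, over a range of 0.00225 to 0.417 in the alternatives tried, and Cbx5 passed too (-2.89, limma adjusted p = 0.0081). Among the 11 alternatives Trim28 passed in the one without replicate 1 of Gctrl NGO (2.56, limma adjusted p = 0.0424), over a range of 0.0424 to 0.748; with all libraries its log2 fold change was 1.66 (95% interval 0.35 to 2.96, limma adjusted p = 0.197). Between the 2 GcKO NGO libraries Setdb1, Suv39h1, Suv39h2, Ehmt2 and Cbx5 were lower in replicate 2, and Ehmt1, Trim28, Cbx1 and Cbx3 were higher in it. Chd4 itself was lower in replicate 2, at 0.247 TPM against 1.34 TPM in replicate 1, and the granulosa cell markers summed to 11.7 and 1.99 TPM in GcKO NGO (replicates 1 and 2) against 0.204 and 0.269 TPM in Gctrl NGO. The Sertoli list summed to 5.94 and 1.24 TPM in GcKO NGO and 0.650 and 0 TPM in Gctrl NGO, and the oocyte markers to 2652 and 2063 TPM in GcKO NGO and 2818 and 3501 TPM in Gctrl NGO. Their part in the result was not tested.

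In P10 GO 0 of 9 passed, where 13.8% of all genes did, and 2 of 9 had an unadjusted p under 0.05, as 25.5% of all genes did. Suv39h1 averaged 3.996 ± 1.93 TPM in GcKO GO and 0.338 ± 0.370 TPM in Gctrl GO (SD, n = 2 each), with a log2 fold change of 1.87 (SE 0.621, 95% interval 0.52 to 3.23, limma adjusted p = 0.0687). It passed at a pseudocount of 0.1 (3.46, limma adjusted p = 0.0267) and with median-of-ratios scaling (limma adjusted p = 0.0402), over a range of 0.0267 to 0.292. Suv39h2 averaged 49.9 ± 2.84 TPM in GcKO GO and 102 ± 19.4 TPM in Gctrl GO, a log2 fold change of -1.005 (95% interval -2.03 to 0.02, limma adjusted p = 0.204), and passed with median-of-ratios scaling alone (-1.30, limma adjusted p = 0.0488). The direction of Suv39h1 and Suv39h2 was thus opposite in GcKO GO, while neither passed. Cbx1 had a log2 fold change of 0.44 (limma adjusted p = 0.195). Endothelial markers summed to 102 and 2.78 TPM in GcKO GO (replicates 1 and 2) and 6.64 and 2.96 TPM in Gctrl GO, which overlap. Granulosa cell markers summed to 15.9 and 49.1 TPM in GcKO GO and 15.2 and 23.8 TPM in Gctrl GO. Nr5a2 alone had 13.2 to 25.4 TPM in GcKO GO and 14.9 to 23.7 TPM in Gctrl GO. Foxl2 had 0.0409 to 4.69 TPM in GcKO GO and was listed at 0 in Gctrl GO. The steroidogenic markers summed to 17.5 to 23.7 TPM in GcKO GO and 4.49 to 8.07 TPM in Gctrl GO, the Sertoli list to 0.701 to 5.01 TPM in GcKO and 0.162 to 0.497 TPM in Gctrl, and the oocyte markers to 4266 to 4466 TPM in GcKO and 3108 to 3196 TPM in Gctrl. The part of these lists in the values was not tested.

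In spermatogonia 0 of 9 passed, where 0% of 18671 genes did, and 3004 genes (16.1%) had an unadjusted p under 0.05, among them 1 of the 9. This was Setdb1, at 55.3 ± 2.36 TPM in DcKO and 82.6 ± 6.81 TPM in Dctrl (SD, n = 2 each), with a log2 fold change of -0.57 (SE 0.189, 95% interval -1.03 to -0.11, limma adjusted p = 0.248). Suv39h1 had the interval nearest to 0, at -0.44 to 0.46 around 0.01, and Suv39h2 had a log2 fold change of 0.55 (95% interval -0.10 to 1.21, limma adjusted p = 0.384). The 6 Sertoli cell markers, 4 to 6 of them at 1 TPM or more, summed to 63.2 and 93.8 TPM in DcKO spermatogonia and to 81.8 and 31.1 TPM in Dctrl, which overlap. Other marker lists separated the groups. The 9 spermatogonia markers summed to 3244 and 2680 TPM in DcKO and 3559 and 3517 TPM in Dctrl. The 7 granulosa cell markers, 3 of which are also Sertoli markers, summed to 399 and 499 TPM in DcKO and 171 and 161 TPM in Dctrl, with Krt18 alone at 252 to 376 TPM in DcKO and 48.5 to 59.2 TPM in Dctrl and the defining gene Foxl2 listed at 0 in all 4 libraries. Stromal markers summed to 36.6 and 40.1 TPM in DcKO and 7.80 and 11.7 TPM in Dctrl, and endothelial markers to 43.6 and 45.6 TPM in DcKO and 22.3 and 22.7 TPM in Dctrl. Steroidogenic markers summed to 4.62 and 9.59 TPM in DcKO and 1.79 and 2.44 TPM in Dctrl, and blood markers to 22.4 and 10.7 TPM in DcKO and 6.33 and 3.91 TPM in Dctrl. The part of these lists in the Setdb1 and Suv39h2 values was not tested.

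The median log2 fold change of the 9 genes was -0.12 in P1 NGO, 0.32 in P5 NGO, 0.33 in P10 NGO, 0.12 in P10 GO and -0.13 in spermatogonia, beside medians over all genes of 0, 0, 0, 0.06 and 0.09. Members without overlap between the knockout and control libraries were 0 higher and 3 lower in P1 NGO, where 18.4% and 22.5% of all genes were so, and 4 higher and 1 lower in P5 NGO, where 23.9% and 23.4% were. In P10 NGO 3 were higher and 3 lower (17.4% and 17% of all genes), and in P10 GO 3 and 2 (30.3% and 18%). In spermatogonia 2 were higher and 1 lower (27.9% and 18%). Cbx5 was lower without overlap in all 3 NGO comparisons, as were 2.36% of all genes; it is named after its values were seen. A difference in knockout effect, whether of P5 from P1 NGO or of GO from NGO at P10, passed in 0 of 9 genes, where 0.313% and 7.46% of all genes did, and 0 of 9 had an unadjusted p under 0.05 in either, as 7.35% and 21.1% of all genes did. Cbx3 had the smallest p in the first (0.63, limma adjusted p = 0.988) and Cbx5 in the second (1.56, 95% interval -0.34 to 3.47, limma adjusted p = 0.347). Without replicate 1 of GcKO NGO, Cbx5 (2.71, limma adjusted p = 0.02) and Suv39h2 (1.63, limma adjusted p = 0.0382) passed in the second.

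Members passed the test only between P10 Gctrl and P5 Dctrl NGO, which differ in more than age, and between GO and NGO at P10. Between P5 and P1 Dctrl NGO 0 of 9 passed, where 4.7% of all genes did, and 2 of 9 had an unadjusted p under 0.05, as 16.3% of all genes did. Cbx3 averaged 6.75 ± 0.796 TPM at P5 and 15.6 ± 1.81 TPM at P1 (SD, n = 2 each), a log2 fold change of -1.10 (95% interval -1.86 to -0.35, limma adjusted p = 0.108), and passed with quantile normalization (limma adjusted p = 0.046). Cbx1 had a log2 fold change of -0.52 (95% interval -0.95 to -0.08, limma adjusted p = 0.21), and passed in a fit of the 2 groups alone (limma adjusted p = 0.0323). In the controls 8 of 9 genes lay lower at P5 than at P1, while 51.2% of all genes lay higher. The median of the 9 was -0.55 against 0.01 over all genes, and Cbx5 was the exception, at 0.57. Between P5 and P1 DcKO NGO 0 of 9 passed, where 5.13% of all genes did, and 0 of 9 had an unadjusted p under 0.05, as 17.1% of all genes did. In DcKO 7 of 9 genes lay lower at P5 than at P1, while 52.9% of all genes lay higher. Their median was -0.27 against 0.06 over all genes. Cbx5 had the smallest p (1.18, limma adjusted p = 0.371).

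Between the P10 Gctrl and P5 Dctrl NGO 6 of 9 passed, 2 higher (5.54% of all genes) and 4 lower (17.1%), where 22.7% of all genes passed either way. Age, genotype, Cre and the Chd4 alleles differ together between these groups and cannot be told apart. All genes moved by a median of -0.47 on the log2 scale, by 0.03 with quantile normalization and by -0.20 with median-of-ratios scaling, so values relative to that median follow. Suv39h2 averaged 61.4 ± 2.85 TPM in P10 Gctrl NGO and 17.8 ± 0.512 TPM in P5 Dctrl NGO (SD, n = 2 each), and rose by 1.73 on the log2 scale (SE 0.468, limma adjusted p = 0.02), or 2.19 above the median of all genes. Cbx3 averaged 30.6 ± 7.79 TPM at P10 and 6.75 ± 0.796 TPM at P5 and rose by 2.01 (SE 0.345, limma adjusted p = 0.00153), or 2.47 above it. Suv39h1 averaged 1.31 ± 0.529 TPM at P10 and 9.98 ± 1.70 TPM at P5, with a log2 fold change of -2.26 (limma adjusted p = 0.0213), or -1.79 relative to the median. Within the SUV39 pair Suv39h2 was therefore higher and Suv39h1 lower at P10. The granulosa cell markers summed to 0.204 and 0.269 TPM in P10 Gctrl NGO and 8.55 and 8.44 TPM in P5 Dctrl NGO, the Sertoli list to 0.650 and 0 TPM at P10 and 1.47 and 3.45 TPM at P5, and the oocyte markers to 2818 and 3501 TPM at P10 and 8457 and 8328 TPM at P5. Their part in these calls was not tested.

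Ehmt2 averaged 0.0956 ± 0.0984 TPM in P10 Gctrl NGO and 2.33 ± 0.00917 TPM in P5 Dctrl NGO, with a log2 fold change of -1.61 (limma adjusted p = 0.0386), or -1.14 relative to the median of all genes. Trim28 averaged 2.41 ± 2.68 TPM at P10 and 24.9 ± 11.5 TPM at P5, with a log2 fold change of -3.12 (SE 0.600, limma adjusted p = 0.00306), or -2.65 relative to it. Cbx1 averaged 131 ± 41.3 TPM at P10 and 288 ± 16.03 TPM at P5, with a log2 fold change of -1.17 (SE 0.201, limma adjusted p = 0.00156), or -0.70 relative to it. Cbx1 did not pass with median-of-ratios scaling (-0.67, limma adjusted p = 0.0823), while Trim28 and Cbx3 passed under all 11 alternatives tried. Setdb1 (0.17), Ehmt1 (-0.79) and Cbx5 (0.06) did not pass.

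Suv39h1, Suv39h2 and Ehmt2 did not pass when any 1 of the 4 libraries was left out of this comparison. For Suv39h2 the limma adjusted p was 0.0857 and 0.0809 without P5 Dctrl replicates 1 and 2, and 0.0624 and 0.0824 without P10 Gctrl replicates 1 and 2. For Suv39h1 it was 0.116 and 0.0627, and 0.0959 and 0.0513, in the same order. For Ehmt2 it was 0.134, 0.113, 0.0919 and 0.139. The log2 fold changes of these 3 genes kept their sign in each case, at 1.68 to 1.77 for Suv39h2, -2.50 to -2.02 for Suv39h1 and -1.70 to -1.52 for Ehmt2. Ehmt2 also did not pass with quantile normalization (-0.53, limma adjusted p = 0.463), with median-of-ratios scaling (-1.29, 0.0781) or with no filter (-1.61, 0.0717), and so was lost in 7 of 11 alternatives. Suv39h1 also did not pass with quantile normalization (-1.22, limma adjusted p = 0.104), and was lost in 5 of 11, while Suv39h2 was lost in 4 of 11.

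**Figure D4:**
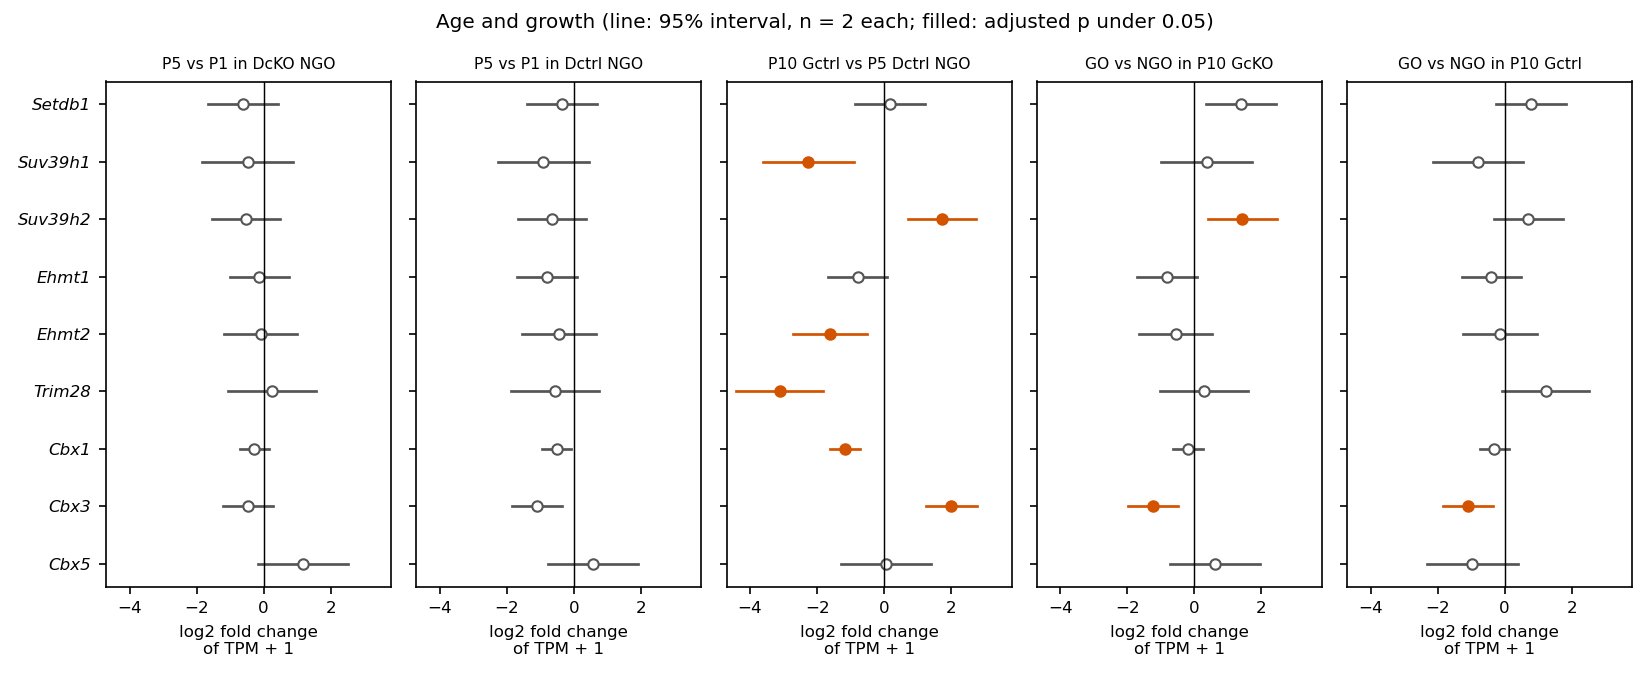
Log2 fold change of TPM + 1 between ages and oocyte stages for each of the 9 genes, with the 95% interval from limma (n = 2 libraries in each group); filled points have an adjusted p under 0.05. The P10 against P5 control panel holds 6 filled points, with Suv39h2 and Cbx3 above 0 and Suv39h1, Ehmt2, Trim28 and Cbx1 below it.

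Cbx3 was lower in GO than in NGO at P10 in both genotypes. The granulosa cell markers summed to 15.2 and 23.8 TPM in GO and 0.204 and 0.269 TPM in NGO of Gctrl. In GcKO they summed to 15.9 and 49.1 TPM in GO and 11.7 and 1.99 TPM in NGO. Nr5a2 alone had 14.9 to 23.7 TPM in Gctrl GO, where Foxl2, Amh and Wt1 were listed at 0 in both libraries. In GcKO GO Nr5a2 had 13.2 to 25.4 TPM and Foxl2 0.0409 to 4.69 TPM. The part of these markers in these calls was not tested. In Gctrl oocytes 1 of 9 genes passed between GO and NGO, where 24.3% of all genes did, 11% higher and 13.2% lower. It was Cbx3, at 13.6 ± 1.49 TPM in GO and 30.6 ± 7.79 TPM in NGO (SD, n = 2 each), with a log2 fold change of -1.10 (SE 0.345, limma adjusted p = 0.0358). Without NGO replicate 1 the limma adjusted p was 0.183, and without GO replicates 1 and 2 it was 0.0851 and 0.159. In GcKO oocytes 2 of 9 passed, 1 higher and 1 lower, where 20.4% of all genes did, 11.5% higher and 8.92% lower. Cbx3 averaged 14.8 ± 0.0463 TPM in GO and 37.4 ± 14.7 TPM in NGO, with a log2 fold change of -1.23 (limma adjusted p = 0.0245). Suv39h2 averaged 49.9 ± 2.84 TPM in GO and 21.7 ± 17.8 TPM in NGO and rose by 1.43 (limma adjusted p = 0.0491), while in Gctrl oocytes it had a log2 fold change of 0.71 that did not pass; the difference between these did not pass either (0.72, 95% interval -0.72 to 2.17, limma adjusted p = 0.609). Cbx3 did not pass in GcKO without NGO replicate 2 (limma adjusted p = 0.158), GO replicate 1 (0.0667) or GO replicate 2 (0.0768). Suv39h2 did not pass without NGO replicate 2 (0.53, limma adjusted p = 0.354), GO replicate 1 (0.142) or GO replicate 2 (0.122), and passed without NGO replicate 1 (2.34, limma adjusted p = 0.000784). With median-of-ratios scaling Cbx3 did not pass in Gctrl (-0.60, limma adjusted p = 0.358) or GcKO (-1.11, limma adjusted p = 0.0739). Setdb1 passed in both under that scaling, at 1.31 in Gctrl and 1.53 in GcKO, and was 1 of 3 members that passed in Gctrl. Other members passed without a single library, which were Trim28 (2.12, without Gctrl NGO replicate 1), Cbx1 (-0.63, without Gctrl NGO replicate 2), Setdb1 and Cbx5 (1.97 and 1.75, without GcKO NGO replicate 1) and Ehmt1 (-1.35, without GcKO GO replicate 1).

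The 42 other genes of the pathway, of which 39 were tested in oocytes and 40 in spermatogonia, came from 6 lists. They were other H3K9 methyltransferases, G9a and GLP partners, SETDB1 and TRIM28 partners, the HUSH complex with MORC2, H3K9 demethylases, and HP1 partners with other heterochromatin factors. In P1 NGO 0 rose and 1 fell in DcKO (0.86% and 0.84% of all genes did), and in P5 NGO 0 and 1 (1.05% and 0.313%). In P10 NGO 1 rose and 0 fell in GcKO (1.02% and 0.899% of all genes), in P10 GO 3 and 2 (9.12% and 4.69%), and in DcKO spermatogonia 0 and 0 (0% and 0%). Over those of the 42 that were tested, the median log2 fold changes were -0.09, -0.07, -0.03, 0.29 and 0.00. The medians over all genes were 0, 0, 0, 0.06 and 0.09. Zfp57, the KRAB zinc finger gene that guards imprints with TRIM28, averaged 42.4 ± 4.68 TPM in P1 DcKO NGO and 135 ± 6.82 TPM in P1 Dctrl NGO (-1.65, limma adjusted p = 0.00191). It averaged 87.7 ± 2.71 TPM in P5 DcKO NGO and 229 ± 30.4 TPM in P5 Dctrl NGO (-1.37, limma adjusted p = 0.00813). The P5 call was lost in 3 of 11 alternatives, at a limma adjusted p of up to 0.119. Those without Dctrl replicate 2 or DcKO replicate 2 were among them. In the P10 GO, Lbr, the gene of the lamin B receptor that binds HP1, averaged 62.6 ± 3.92 TPM in GcKO and 465 ± 74.5 TPM in Gctrl (-2.87, limma adjusted p = 0.000112). Morc2a of the MORC2 list averaged 12.4 ± 2.49 TPM in GcKO GO and 1.02 ± 0.879 TPM in Gctrl GO (2.79, limma adjusted p = 0.0129). This call was lost in 3 of 11 alternatives, including those without Gctrl replicate 2 or GcKO replicate 1.

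Smarcad1, a remodeller that maintains heterochromatin, averaged 11.1 ± 2.10 TPM in P10 GcKO NGO and 0.640 ± 0.511 TPM in Gctrl NGO (2.91, limma adjusted p = 0.0119). This call was lost in 2 of 11 alternatives, including that without Gctrl NGO replicate 2, at a limma adjusted p of up to 0.375. In GO Smarcad1 averaged 1.58 ± 1.04 TPM in GcKO and 8.52 ± 2.11 TPM in Gctrl (-1.93, limma adjusted p = 0.0184). That call was lost in 4 of 11 alternatives, including those without Gctrl replicate 1, Gctrl replicate 2 or GcKO replicate 2. The knockout effect on Smarcad1 differed between GO and NGO by -4.84 (limma adjusted p = 0.00152), and that on Lbr by -2.24 (limma adjusted p = 0.0129). The call of Lbr was lost in 2 of 15 alternatives, including that without Gctrl GO replicate 1. Smarcad1 and Lbr were the 2 of the 42 below 0 that passed, with 0 above it, where 2.62% and 4.84% of all genes passed. Pphln1 of the HUSH complex averaged 186 ± 19.9 TPM in GcKO GO and 103 ± 2.24 TPM in Gctrl GO (0.84, limma adjusted p = 0.0163). This call was lost in 5 of 11 alternatives, at a limma adjusted p of up to 0.155. Those without Gctrl replicate 1, Gctrl replicate 2 or GcKO replicate 2 were among them.

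The 42 were also compared between ages and stages. Between P10 Gctrl and P5 Dctrl NGO 1 rose and 10 fell of the 39 tested (5.54% and 17.1% of all genes did), and those with the smallest p fell: Chaf1a (-2.35, limma adjusted p = 0.00108), a subunit of the histone chaperone CAF-1, Pphln1 (-1.05, limma adjusted p = 0.00333), Cdyl2 (-3.37, limma adjusted p = 0.0131) and the methyltransferase gene Prdm16 (-2.17, limma adjusted p = 0.0184). Pphln1 was lost with median-of-ratios scaling (limma adjusted p = 0.136), and Cdyl2 without P5 Dctrl replicate 1 or P10 Gctrl replicate 1 or 2. Prdm16 was lost in 4 of 11 alternatives, including those without P5 Dctrl replicate 1 or 2 or P10 Gctrl replicate 2. Between GO and NGO of Gctrl 4 rose and 4 fell, where 11% and 13.2% of all genes did, with Lbr (2.63, limma adjusted p = 9.18e-05), Zfp57 (1.54, limma adjusted p = 0.000143) and Smarcad1 (2.55, limma adjusted p = 0.00196) higher in GO and the demethylase gene Kdm3a (-2.48, limma adjusted p = 0.00679) lower. Between GO and NGO of GcKO 3 rose and 1 fell, where 11.5% and 8.92% of all genes did, with Zfp57 (2.48, limma adjusted p = 9.87e-06), Pphln1 (0.67, limma adjusted p = 0.0357) and Kdm3b (1.24, limma adjusted p = 0.0495) higher in GO and Smarcad1 (-2.28, limma adjusted p = 0.00504) lower. Pphln1 was lost there in 3 of 11 alternatives, including those without NGO replicate 2 or GO replicate 2. Kdm3b was lost in 8 of 10, including those without NGO replicate 1 or 2 or GO replicate 2, at a limma adjusted p of up to 0.329. Smarcad1 was lost in 1 of 11 (limma adjusted p = 0.0989). Between P5 and P1 Dctrl NGO 0 rose and 0 fell (2.72% and 1.98% of all genes). Between P5 and P1 DcKO NGO 0 fell (1.24% of all genes) and 1 rose (3.89%), Zfp57 (1.04, limma adjusted p = 0.0119), lost without P1 replicate 2 (0.0814) or P5 replicate 1 (0.0795) or 2 (0.0647).

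Over the 16 oocyte libraries the members most alike among themselves were Suv39h1 and Ehmt2 (Pearson r 0.93 on log2(TPM + 1)), Cbx1 and Ehmt1 (0.91), Cbx1 and Ehmt2 (0.91) and Cbx1 and Suv39h1 (0.90). Suv39h2 ran against Cbx1 (-0.68), Ehmt1 (-0.65), Ehmt2 (-0.62), Trim28 (-0.61) and Suv39h1 (-0.56). The libraries share the P1, P5 and P10 design, in which Cre and Chd4 alleles change with age. These values therefore describe the groups as much as the genes. Among 7739 other genes, those close to each member were Uxs1 and Cfap97 for Setdb1 (0.87 and 0.84), Dctn3 and Snrpa for Suv39h1 (0.97 for both) and Tcea1 and Nfxl1 for Suv39h2 (0.95 and 0.92). They were Ppil1 and Mrpl36 for Ehmt1 (0.98 and 0.96), Angptl4 and Ptpn1 for Ehmt2 (0.97 for both), and Ssu72 and Plekhj1 for Trim28 (0.96 for both). For the HP1 genes they were Psmc1 and Prdx4 for Cbx1 (0.98 for both), mt-Co1 for Cbx3 (0.94), and Hax1 and Pgam5 for Cbx5 (0.89 and 0.86).

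In the annotation (GRCm38, GENCODE M21) all 9 are protein-coding genes. Setdb1 (ENSMUSG00000015697) lies at chr3:95323525-95357202, Suv39h1 (ENSMUSG00000039231) at chrX:8061171-8074760, Suv39h2 (ENSMUSG00000026646) at chr2:3455815-3475031 and Ehmt1 (ENSMUSG00000036893) at chr2:24789928-24919614, all on the minus strand. Ehmt2 (ENSMUSG00000013787) lies at chr17:34898469-34914052, Trim28 (ENSMUSG00000005566) at chr7:12999114-13031035, Cbx1 (ENSMUSG00000018666) at chr11:96789127-96808640 and Cbx3 (ENSMUSG00000029836) at chr6:51470360-51483704, all on the plus strand. Cbx5 (ENSMUSG00000009575) lies at chr15:103191544-103239816 on the minus strand. Exons of Setdb1 share 75 bases with Cers2 and 249 with Gm37500 on the other strand, those of Suv39h2 a further 83 with Gm13184 on the other strand, and those of Ehmt1 21 with Gm37139. Exons of Ehmt2, Trim28, Cbx1, Cbx3 and Cbx5 overlap no exon of another annotated gene.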

How the data were processed

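RNA of 16 oocyte and 4 spermatogonia libraries was sequenced on paired reads from a low-input kit, per the labels' protocols. The authors deposited TPM in 1 table per cell type. Reads were processed with Trimmomatic 0.39, STAR 2.5.4b, SAMtools 1.9 and featureCounts 2.0.1 of Subread on GRCm38, per the submitters' processing notes. The annotation, gene lengths, strand setting and TPM method are not given in the sources used here. Multiplied by GENCODE M21 exon lengths and scaled per library, the values below 20 reads came out whole, to within 0.05, in 98.65% to 99.19% of cases. Those reads give depth only, since TPM is not a count, and no count test was run.

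Values were analysed as log2(TPM + 1) with limma 3.58.1 in R 4.3.3 (lmFit, contrasts.fit, trended eBayes). Tests were two-sided, and p-values were adjusted by the Benjamini-Hochberg method within a comparison, with a threshold of 0.05. The genes tested had 1 TPM or more in at least 2 of the libraries fitted. The 16 oocyte libraries shared a fit with 8 residual degrees of freedom, and spermatogonia were fitted alone with 2. Fold changes of low genes are understated on this scale. No label states that the 2 replicates of a group were separate animals, so p-values measure the spread between libraries. The code was tested on simulated data.

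The members, the lists and the tests were chosen with earlier results of these data known, so a pattern seen earlier is no independent support. Tests are printed for members past the threshold and, where none passed, for the member with the smallest p, and other values were chosen after they were seen. From the pathway lists up to 4 genes with the smallest p among those past the threshold are named per comparison. The 2 genes most like each member were named by Pearson r, among genes with a mean of at least 5 TPM in oocytes and no predicted-model name; 1 such gene is not reported here. Alternatives were pseudocount 0.1, a filter of 5 TPM, no filter, quantile and median-of-ratios scaling, a replicate block, each library left out, and a fit of only the groups compared. Figures were drawn with matplotlib 3.10.9 in Python 3.11.15, from tables made with numpy 2.4.6 and pandas 2.3.3.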

Additional observations from a re-analysis of the deposited data

How the results depend on the processing

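Counts of members past the threshold were recomputed in 139 alternatives, of which 115 stayed within 1.5 times the count given and 24 did not. Leaving out 1 library gave 0 to 2 members in P10 NGO GcKO against Gctrl, 3 in each case in P10 Gctrl against P5 Dctrl NGO, 0 to 2 between GO and NGO of Gctrl, 0 to 4 between GO and NGO of GcKO, and 0 to 2 for the difference of the knockout effect between GO and NGO. In P10 GO GcKO against Gctrl a pseudocount of 0.1 gave 1 and median-of-ratios scaling 2. Between P5 and P1 Dctrl NGO quantile normalization gave 1 and the fit of only those groups 1. Between GO and NGO of Gctrl quantile normalization gave 0, median-of-ratios scaling 3 and the fit of only those groups 0, and of GcKO no filter gave 1 and the fit of only those groups 0. The cause was not tested, beyond that fits with fewer libraries have fewer degrees of freedom. Same-numbered libraries of the groups compared did not deviate together (r -0.0492 to 0.0466), so the numbers are not taken as pairs; with a replicate block the count between GO and NGO of GcKO was 1, as Suv39h2 had a limma adjusted p of 0.0592, and the block changed no other call of a member. Of 453 alternatives for single genes, 372 stayed on their side of the threshold, 76 lost the call and 5 gained it. No direction reversed among these named genes, and the directions of the other members were not counted. With 2 libraries a group, and few reads for Ehmt2 and Suv39h1 at P10, differences of less than about the intervals given were not detectable.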
